A study of Mus musculus with 2 samples.

Results

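Osteopontin, encoded by Spp1, and 7 genes for its receptors were followed through every cell group of muscle stem cell (MuSC) preparations from sham and mechanically overloaded (MOV) plantaris muscle. These 8 genes, of 32285 in the count matrices, were Spp1, Cd44, Itgav, Itgb1, Itgb3, Itgb5, Itga4 and Itga9. They were taken as a named list, and Spp1 had been chosen because no unique molecular identifier (UMI, the tag that marks 1 captured transcript) of it was seen in sham MuSCs with quiescence markers while MOV cells of that kind held many. The sham and MOV values of Spp1 in these cells are therefore a description of what chose the gene and not a finding. Those of all MuSCs of the 2 libraries include these cells and are read in the same way. So are Spp1 ratios of other MOV states to these cells.

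Osteopontin is a secreted, acidic glycoprotein of bone matrix that macrophages, fibroblasts and other cells make in injured tissue. It acts as a matrix-bound and soluble ligand of integrins, which are heterodimers of an alpha and a beta subunit, and of Cd44, the membrane receptor of hyaluronan. The subunits followed here form the receptors alpha-v beta-1, alpha-v beta-3, alpha-v beta-5, alpha-4 beta-1 and alpha-9 beta-1. The alpha-v receptors read an arginine-glycine-aspartate motif, and the alpha-4 and alpha-9 receptors read the stretch that follows it, which thrombin cleavage exposes. This stretch of the Spp1 coding sequence is shown because both kinds of receptor read it, with the 3 codons of the arginine-glycine-aspartate motif in capitals:
Spp1: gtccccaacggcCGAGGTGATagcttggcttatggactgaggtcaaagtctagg
The 54 bases lie at chr5:104439469-104439522 on the plus strand of GRCm38 (GENCODE M21), in exon 7 of 8 of the longest coding transcript, where the motif starts at codon 145 of 295 and is found 1 time in frame.

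Spp1 is at chr5:104435118-104441050 on the plus strand of GRCm38. Cd44 is on the minus strand at chr2:102811141-102901665, and Itgav and Itga4 lie on the plus strand of the same chromosome, at chr2:83724397-83806916 and chr2:79255426-79333123. Itgb1 is at chr8:128685654-128733200, Itgb3 at chr11:104608000-104670476, Itgb5 at chr16:33829665-33949338 and Itga9 at chr9:118606690-118901003, each on the plus strand. The assay counts the 3′ ends of transcripts, so all splice forms of a gene, such as those of Cd44, are counted together.

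The mice of both groups were 26 weeks old and carried Pax7rtTA, which makes the transactivator in cells that express Pax7, together with the reporter TRE-H2B-GFP, and both groups had received doxycycline at 2.0 mg/mL with 2% sucrose in their water for 2 weeks. Sham mice had the skin opened and the tendon probed, and MOV mice had lost part of the synergist muscles, which loads the plantaris for 5 days. The sources differ on the sort: the design text names the GFP signal, and the protocol names staining for VCAM, CD31, CD45 and Sca1. For each condition 1 library was made. Differences between the libraries were therefore measured without replicates and not tested. The sham library held 1100 cells with 7302661 UMIs (median of 4116.5 per cell) and the MOV library 3854 cells with 88498487 UMIs (median of 16836), of which 738 and 3023 cells were kept.

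The kept cells were grouped by thresholds on marker genes that were set after the data had been viewed. Only 122 of the 738 sham cells (16.5%) and 1592 of the 3023 MOV cells (52.7%) met the MuSC thresholds, while 479 sham cells were droplets rich in adult fibre transcripts. Pax7 stood at 119 CPM (UMIs of the gene scaled to 1000000 UMIs of the group) in the sham MuSCs and 74.0 CPM in the MOV MuSCs, and 10 of 10 MuSC markers were detected in both. MuSCs were split by a list of quiescence genes and a list of 5 matrix genes (Gpc3, Islr, Mgp, Col1a1 and Col3a1) as well as by cell cycle, immediate-early and interferon genes. The libraries shared 44 cell barcodes, and the shallower copy of a pair held a median of 2.11% of the UMIs of the deeper copy. These shallower copies, 5 in the sham and 39 in the MOV library, were left out.

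Spp1, the ligand, was absent from nearly every sham MuSC and abundant in many MOV MuSCs. In the sham library 116 of 122 MuSCs held no Spp1 UMI, and none was seen in the 79 quiescence-marker MuSCs (0 of 685354 UMIs, which allows up to 4.38 CPM at 3 counts). All 464 Spp1 UMIs of the sham MuSCs sat in 6 cells with a median depth of 62888 UMIs, against 7912.5 in those without. Of these 6 cells 3 fell in the G2/M group and 1 in the S-phase group, and they held 1 to 180 Spp1 UMIs each. In all, 5 of the 6, with 366 of the UMIs, carried a barcode that also occurred in the MOV library, as its deeper copy. The level of Spp1 in all sham MuSCs was 291 CPM with these cells and 96.0 CPM when both copies of every shared barcode were left out.

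In the MOV library the 1592 MuSCs together held 70547 Spp1 UMIs, or 1451 CPM (95% Poisson interval 1440.2 to 1462), which made Spp1 the 125th of 18943 detected genes by UMIs. The ratio to the sham MuSCs was 4.99-fold on summed UMIs (log2 ratio 2.32, 2.19 to 2.45), 3.92 on the log2 scale without the shared barcodes and 4.69 when each cell counted equally. Both pools include the quiescence-marker MuSCs whose values chose Spp1, so this ratio is a description as well. Of all 13182 genes with at least 20 UMIs in this comparison, 25.7% were past 2-fold in either direction. The calls for higher made up 46.7% of these, and 36.1% with DESeq2 size factors.

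Within the MOV MuSCs the level of Spp1 differed more than 20-fold between states. The quiescence-marker MuSCs were the lowest, with 105 CPM (90.9 to 122; 186 UMIs in 148 cells). The quiescence-and-matrix MuSCs, which were also at or above the quiescence threshold but passed the matrix threshold, stood at 2490.2 CPM (2428 to 2553; 144 cells), and the matrix MuSCs at 2939.99 CPM (2887 to 2993; 171 cells). Both lay far above the quiescence-marker MuSCs, at 23.6 and 27.9 times their level (log2 ratios 4.56 and 4.80). The level of the quiescence-marker MuSCs is among the values that chose Spp1, so ratios to it are a description as well. With both thresholds 0.2 lower these log2 ratios were 2.24 and 1.93, as the quiescence-marker MuSCs then stood at 528 CPM. The other states fell between, with 1475 CPM in the immediate-early, 1404 in the remaining, 1316 in the G2/M, 1081 in the S-phase and 908 CPM in the interferon MuSCs. Each of these intervals excluded those of its neighbours in the order except for the pair of immediate-early (1393 to 1560.2) and remaining MuSCs (1376 to 1433). These intervals cover counting error only, since cells of 1 library share their source. In the comparisons of the matrix and of the quiescence-and-matrix MuSCs with the quiescence-marker MuSCs, 11.7% and 6.98% of all tested genes were at least 2-fold higher.

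**Figure D1:**
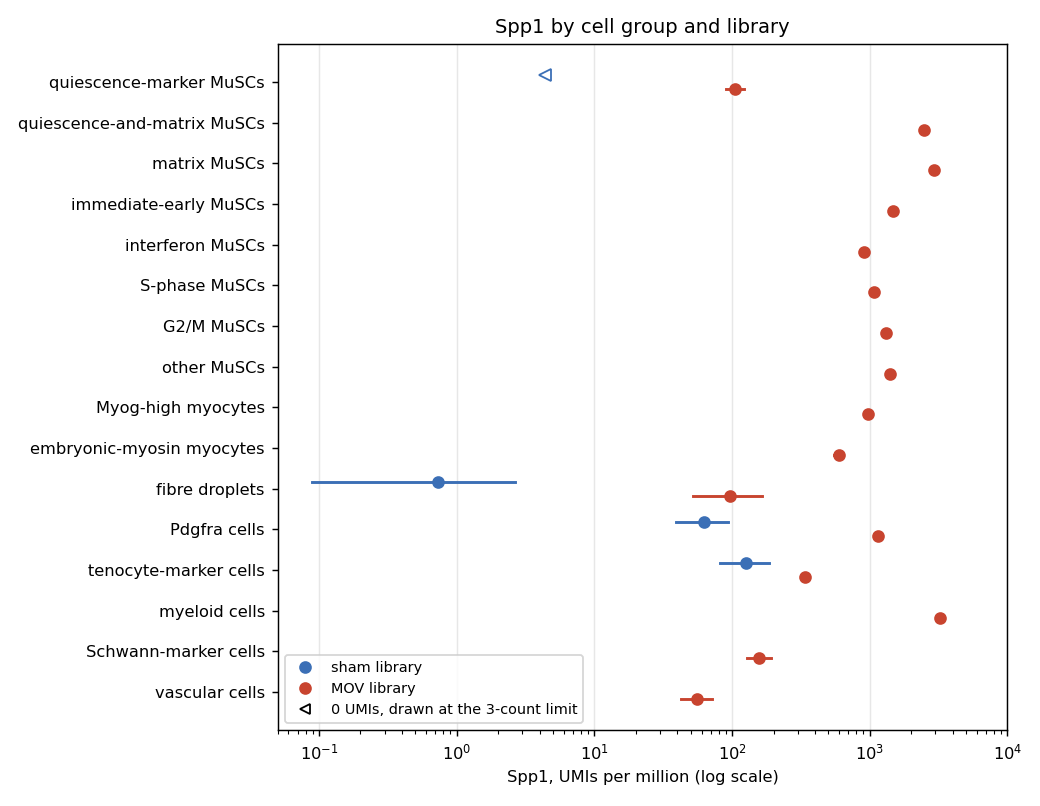
Spp1 in CPM (log scale) for each cell group with at least 18 cells in a library. Points are summed levels with 95% Poisson intervals, blue for sham and red for MOV, and the open triangle marks 0 UMIs at the limit that 3 counts give. Among MOV MuSCs the quiescence-marker group (105 CPM) stands beside fibre droplets (97.1 CPM), and the matrix groups stand near myeloid cells (3242 CPM).

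The 2 groups with quiescence markers differ by a threshold of 1.2 on the matrix score, a mean over the 5 genes of the natural log of 1 plus UMIs per 10000, so Spp1 was also read along that score. Among MOV MuSCs with a quiescence score of 0.6 or higher, Spp1 stood at 121 CPM (44.3 to 263) in the 9 cells with a matrix score under 0.4. It stood at 44.6 CPM (28.9 to 65.9) in the 48 cells from 0.4 to 0.8 and at 134 CPM (114 to 157) in the 91 cells from 0.8 to 1.2. The level was 1826 CPM (1749.7 to 1904) in the 73 cells from 1.2 to 1.6 and 3101 CPM (3006 to 3199) in the 71 cells at 1.6 or above. Among these cells the level rose most between the bins on either side of 1.2. Over all MOV MuSCs outside the cycling, immediate-early and interferon groups, whatever their quiescence score, Spp1 was 878, 1099, 1219.5, 2272 and 3383 CPM in the same 5 bins, a more gradual rise that began at a high level. Sham MuSCs with the same quiescence score had no Spp1 UMI in any bin, but only 4 of these 80 cells reached a matrix score of 0.8. Along the quiescence score, over the MOV MuSCs outside the cycling, immediate-early and interferon groups, Spp1 was 2512 CPM from 0.4 to 0.6, 2330.4 CPM from 0.6 to 0.8, 584 CPM from 0.8 to 1 and 40.9 CPM (26.5 to 60.3) in the 58 cells at 1 or above. Without the matrix list the MOV MuSCs at or above the quiescence threshold had 1498 CPM in place of 105, so the value for quiescent-like MuSCs depends on whether the cells with matrix transcripts are counted among them.

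**Figure D2:**
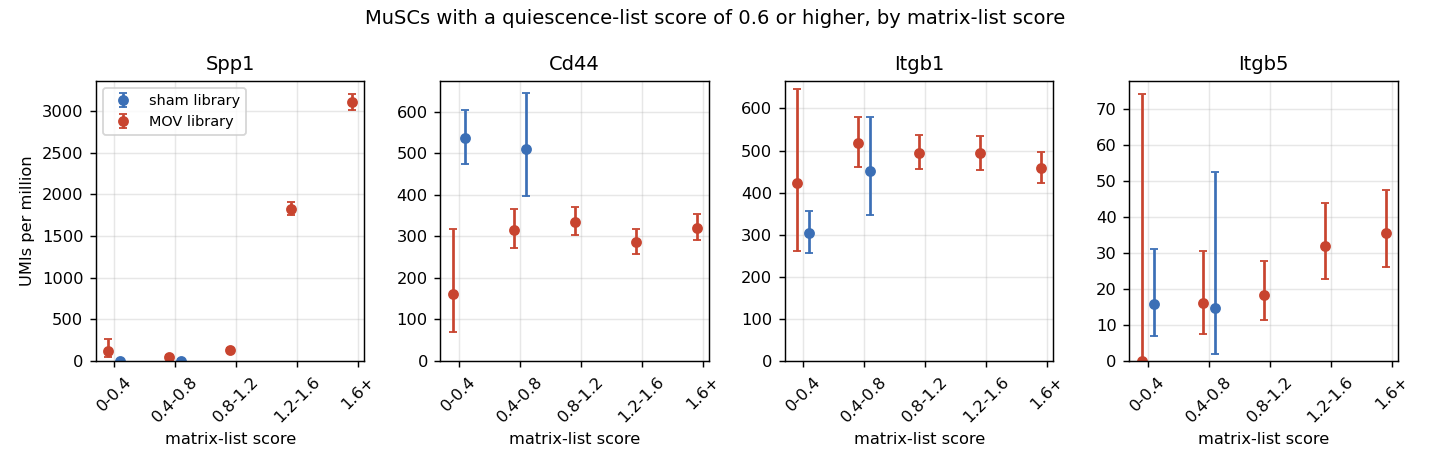
Levels of 4 genes in CPM (linear axis from 0) in MuSCs with a quiescence-list score of 0.6 or higher, in bins of the matrix-list score with at least 9 cells. Points are summed levels with 95% Poisson intervals, blue for sham and red for MOV. Spp1 goes from under 150 CPM below a score of 1.2 to 3101 CPM at 1.6 or above, whereas Cd44 and Itgb1 stay within 161 to 335 and 422 to 518 CPM over the same MOV bins.

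The level in the MOV quiescence-marker MuSCs was near that of the fibre droplets and above that of the vascular cells. In the same library vascular cells held 55.6 CPM (42.3 to 71.7; 64 cells), the fibre droplets 97.1 CPM (51.7 to 166; 27 droplets) and the Schwann-marker cells 157 CPM (128 to 192; 73 cells). A single quiescence-marker MuSC held 71 of the 186 Spp1 UMIs, and without it the level was 65.9 CPM (54.4 to 79.0), an interval that overlaps that of the vascular cells. A Spp1 UMI was seen in 40.5% of the quiescence-marker MuSCs (median depth of 11105.5 UMIs) and in 43.8% of the vascular cells (13440.5 UMIs). With every cell thinned to 2000 UMIs the shares were 9.52% (exact binomial interval 5.31 to 15.5) of 147 cells and 5.17% (1.08 to 14.4) of 58 cells. As these intervals overlap, the share in the quiescence-marker MuSCs is not read as expression. In the sham library the fibre droplets held 0.729 CPM (2 UMIs in 479 droplets) and the 11 vascular cells none. The part of free RNA in these values was not tested.

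At the same depth the share of cells with a Spp1 UMI was 39.6% (31.5 to 48.1) of the quiescence-and-matrix MuSCs, 61.4% (53.7 to 68.7) of the matrix MuSCs and 40.2% (36.3 to 44.3) of the G2/M MuSCs. Over all MOV MuSCs it was 37.2% (34.8 to 39.6; 1581 cells, 11 shallower cells left out), against 70.1% before thinning. In sham MuSCs it was 3.31% (0.908 to 8.25; 121 cells) and 4.92% before thinning. The interval of the MOV MuSCs lay above that of the vascular cells of the same library. In the sham library 0.299% (0.00756 to 1.65; 335 droplets) of the fibre droplets held one at this depth, and the intervals of the sham MuSCs and these droplets overlapped, while their unthinned levels were 291 and 0.729 CPM.

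Spp1 was spread very unevenly over the cells of a group. In the MOV MuSCs the median cell held 86.3 CPM, the upper quartile began at 892 CPM and the highest cell reached 43028 CPM, and the 160 cells with the most held 68.5% of the Spp1 UMIs. Cells above 1000 CPM made up 24.0% (21.9 to 26.2) of all MOV MuSCs. They were 45.03% (37.4 to 52.8) of the matrix MuSCs, 26.4% (19.4 to 34.4) of the quiescence-and-matrix MuSCs, 26.1% of the G2/M, 21.8% of the S-phase and 8.16% of the interferon MuSCs. Among the quiescence-marker MuSCs only 1 of 148 cells (0.676%, 0.0171 to 3.71) passed that level, and among the vascular cells 0 of 64 did. The matrix MuSCs, with a median of 772 CPM, were the only MuSC state in which the middle cell stood above 150 CPM.

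**Figure D3:**
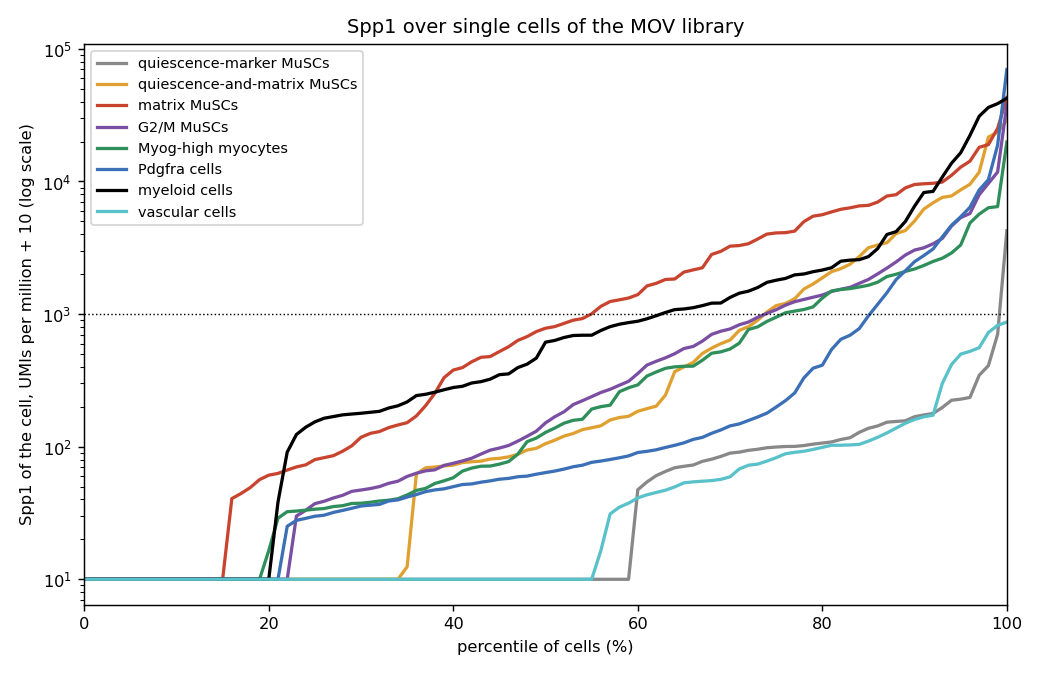
Spp1 of single MOV cells in CPM plus 10 (log scale) against the percentile of cells, 1 line for each of 8 cell groups, with a dotted line at 1000 CPM. Lines that run flat along the bottom are cells without a Spp1 UMI. The matrix MuSCs cross the dotted line at about their middle cell (45.03% above it), the Pdgfra cells only in their top part (14.8% above it), and the vascular cells do not cross it.

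Spp1 was also abundant in the myocytes of the MOV library. The 108 MOV myocytes with high Myog, the factor of early muscle differentiation, held 978 CPM (951 to 1007), 0.674 times the level of the MOV MuSCs, and 25% of them were above 1000 CPM. The 18 myocytes with embryonic myosin held 595 CPM (552 to 641), with a Spp1 UMI in 18 of 18 cells. These cells were deep (median of 58764.5 UMIs), and that share was not thinned. Thinned to 2000 UMIs, 41.4% (31.6 to 51.8) of 99 Myog-high myocytes held a Spp1 UMI. No sham cell met the myocyte thresholds. In the comparison of Myog-high myocytes with MuSCs 20.9% of all tested genes were past 2-fold.

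Outside the myogenic cells, Pdgfra cells and myeloid cells held the most Spp1. Myeloid cells, known as a source of osteopontin in injured muscle, were at 3242 CPM (3123 to 3365; 79 MOV cells), the highest of all groups and 2.23 times the level of the MOV MuSCs (log2 ratio 1.16, and 0.77 with cells given to the highest list), and 1 of the 2 sham myeloid cells held 47 Spp1 UMIs. The Pdgfra cells, which carry the markers of fibro-adipogenic progenitors, were at 1149.9 CPM (1134 to 1166; 499 cells) in MOV and 62.1 CPM (39.4 to 93.2; 23 UMIs in 29 cells) in sham. All 23 sham UMIs came from 2 cells, and the ratio of 18.5-fold (log2 ratio 4.21, 3.62 to 4.87) is 3.24 on the log2 scale when each cell is given to its highest marker list. Of all tested genes 36.7% were past 2-fold between the Pdgfra cells of the libraries, 31.1% of these calls were for higher in MOV, and 50.2% were with TMM factors. Spp1 in the Pdgfra cells was concentrated, since the top 50 cells held 86.4% of the UMIs and the median cell had 53.8 CPM. Tenocyte-marker cells held 340.3 CPM (319.8 to 362) in MOV and 126 CPM (82.4 to 185) in sham.

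CD45, CD31 and Sca1, which the sorting protocol names, mark cells other than MuSCs. In the MOV library Ptprc (CD45) stood at 299 CPM in myeloid, Pecam1 (CD31) at 309.9 CPM in vascular and Ly6a (Sca1) at 1371 CPM in Pdgfra cells. Ptprc and Pecam1 had 0 UMIs in the MOV quiescence-marker MuSCs. Myeloid transcripts were also read across the MuSC states, and their part in the Spp1 values was not tested. Lyz2, a lysozyme gene of myeloid cells, was at 7852 CPM in MOV myeloid cells and between 8.69 and 18.7 CPM in the 8 MOV MuSC states. It was at 18.7 CPM (33 UMIs) in the quiescence-marker MuSCs, which had the least Spp1, and 17.95 CPM (14 UMIs) in the interferon MuSCs. Lyz2 was not confined to myeloid cells, with 1142 CPM in MOV Schwann-marker cells and 52.3 CPM in MOV fibre droplets. The myeloid cells held 0.413 Spp1 UMIs per Lyz2 UMI, the quiescence-marker MuSCs 5.64 (3.88 to 8.43) and the matrix MuSCs 258 (193 to 353). The summed level of the 12 myeloid markers was 45.4 CPM in the quiescence-marker MuSCs (9 detected) and 29.2 CPM in the matrix MuSCs (11 detected). Leaving out every MuSC with a UMI of 7 defining myeloid genes left 1376 CPM of Spp1 in the MOV MuSCs. The tenocyte markers summed to 51.0 CPM in the quiescence-marker and 68.8 CPM in the matrix MuSCs, and the Pdgfra cell markers to 281 and 178 CPM.

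Among the receptors, MuSCs of both libraries held Cd44 and Itgb1 at high levels, Itgav and Itgb5 at low levels, and almost no Itgb3, Itga4 or Itga9. Because the assay counts transcript ends, levels of the genes are compared here without a correction for length.

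Among MuSC states Cd44 was highest in the quiescence-marker groups and lowest in the cycling ones. In the sham quiescence-marker MuSCs it stood at 533 CPM (479 to 590.1) and in those of the MOV library at 324 CPM (298 to 352). A Cd44 UMI was seen in 86.1% and 89.9% of these cells before thinning. With every cell thinned to 2000 UMIs the shares were 55.1% (43.4 to 66.4) in sham and 41.5% (33.4 to 49.9) in MOV. Within the MOV library Cd44 went down from 324 CPM to 303.8 CPM in quiescence-and-matrix, 248 in matrix, 209 in the remaining, 189.8 in interferon, 188 in immediate-early, 177 in G2/M and 176 CPM in S-phase MuSCs. It was down to 116 CPM (106 to 126) in Myog-high and 69.1 CPM (54.8 to 86.0) in embryonic-myosin myocytes. The intervals of the first 2 groups overlapped, as did those of each neighbouring pair from the remaining to the S-phase MuSCs. Along the quiescence score of the same non-cycling cells as above it was 193 CPM (177 to 211) under 0.2 and 345 CPM (300.03 to 395) at 1 or above, with intermediate values in order between, opposite to Spp1 at the top of that score. Outside the MuSCs, MOV Pdgfra cells (432 CPM), myeloid cells (458 CPM) and Schwann-marker cells (321 CPM) held much Cd44, and sham fibre droplets nearly none (1.46 CPM).

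Itgb1, the beta subunit shared by the most osteopontin receptors, was detected in 99.1% of the MOV MuSCs. It stood at 337 CPM (295 to 383) in sham and 500.3 CPM (468 to 534) in MOV quiescence-marker MuSCs and ran from 375 CPM in the immediate-early to 539.8 CPM in the interferon MuSCs among the MOV states. The G2/M MuSCs (378 CPM) lay below the quiescence-marker MuSCs, with a log2 ratio of -0.40 (-0.50 to -0.30). Myog-high myocytes were lower, at 318 CPM (302 to 334). The vascular cells had the most, 1160.3 CPM (1096 to 1227), and the myeloid cells the least of the MOV groups other than fibre droplets, 270.1 CPM (236 to 307).

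Itgav, the alpha subunit of the vitronectin receptors, was at 40.9 CPM (27.1 to 59.05) in sham and 41.4 CPM (32.5 to 52.1) in MOV quiescence-marker MuSCs. Its levels in the other MOV MuSC states ran from 20.6 to 42.6 CPM and were 14.6 CPM (11.4 to 18.4) in Myog-high myocytes. In MOV Pdgfra, myeloid and Schwann-marker cells it was higher, with 115, 111 and 192 CPM. Itgb5, which pairs with Itgav, was at 14.6 CPM (10 UMIs) in sham and 17.0 CPM (30 UMIs) in MOV quiescence-marker MuSCs. It was 33.9 CPM (27.1 to 42.0) in the quiescence-and-matrix and 30.2 CPM (25.1 to 36.1) in the matrix MuSCs, the only MuSC states whose intervals lay above that of all MOV MuSCs (12.9 CPM, 11.9 to 13.9). These are the states with the most Spp1. Among MOV MuSCs with a quiescence score of 0.6 or higher it was 16.1 CPM (7.34 to 30.5) at a matrix score from 0.4 to 0.8 and 35.7 CPM (26.1 to 47.6) at 1.6 or above. Pdgfra cells held 93.3 CPM in MOV and 113 CPM in sham, and vascular cells 107 CPM.

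Itgb3, which also pairs with Itgav, gave 0 UMIs in the 122 sham MuSCs and 16 UMIs in the 1592 MOV MuSCs (0.329 CPM), so that in sham up to 1.88 CPM are allowed by 3 counts. It was 12.6 CPM (11.1 to 14.4) in MOV Pdgfra cells, 16.2 CPM (6 UMIs) in sham Pdgfra cells and 11.3 CPM (12 UMIs) in vascular cells. Itga9 likewise had 0 UMIs in sham and 19 UMIs (0.391 CPM) in MOV MuSCs, against 9.84 CPM (8.46 to 11.4) in MOV and 29.7 CPM (14.8 to 53.2; 11 UMIs) in sham Pdgfra cells and 22.2 CPM in MOV myeloid cells.

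Itga4, the alpha subunit that leukocytes use to bind VCAM-1, had 0 UMIs in the quiescence-marker MuSCs of both libraries. In these cells 3 counts allow up to 4.38 CPM in sham and 1.70 CPM in MOV. Itga4 was at 2.23 CPM in matrix, 2.25 in G2/M and 4.83 CPM (3.30 to 6.82) in the remaining MOV MuSCs. In Myog-high myocytes it was at 11.03 CPM (8.26 to 14.4; 53 UMIs, in 20.4% of 108 cells). With these deep myocytes thinned to 2000 UMIs, 0 of 99 held an Itga4 UMI (interval 0 to 3.66%). In a thinning to 5000 UMIs, separate from that used for gene pairs, 3 of 98 did (3.06%, 0.636 to 8.69). Of the MOV MuSCs 6 of 1552 did at that depth (0.387%, 0.142 to 0.840), and these intervals overlapped. Myeloid cells had the most, 52.6 CPM (38.4 to 70.4), and MOV Pdgfra cells 1 UMI in 499 cells.

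**Figure D4:**
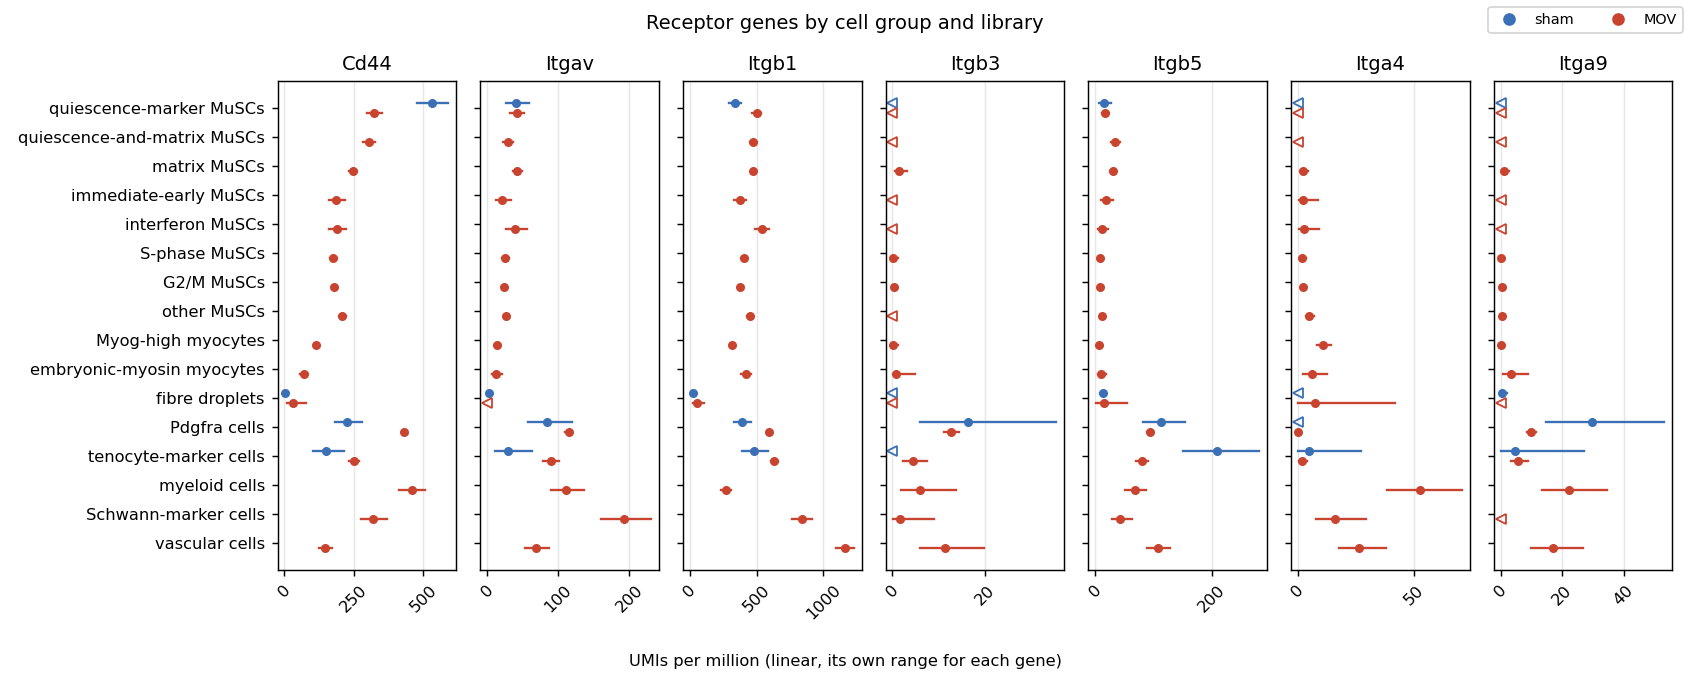
The 7 receptor genes in CPM (linear axis, its own range for each gene) for each cell group with at least 18 cells. Points are summed levels with 95% Poisson intervals, blue for sham and red for MOV, and open triangles mark 0 UMIs. Cd44 declines from 324 CPM in MOV quiescence-marker MuSCs to 116 CPM in Myog-high myocytes. Itgb3 and Itga9 stand under 2 CPM in each MuSC group shown that held UMIs of them. Where a group had 0 UMIs, 3 counts can allow more, up to 4.38 CPM in the sham quiescence-marker MuSCs.

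Between the libraries, Itgb3, Itga4 and Itga9 gave no ratio in the quiescence-marker MuSCs, as they had 0 UMIs in both. Of 7 receptors 4 had at least 20 UMIs and 0 of these 4 were past 2-fold, where 18.6% of 7167 genes were (70.2% of these calls for higher in MOV, and 46.0% with DESeq2 size factors). So few genes cannot be told apart from that share. Cd44 was at 0.608 times its sham level (log2 ratio -0.72, -0.91 to -0.52), and the median of all genes was 0.15, so that it lay -0.87 from that median. Itgb1 was 1.48-fold higher (log2 ratio 0.57, 0.36 to 0.78), 0.42 above the median. The intervals of Itgav (log2 ratio 0.02, -0.63 to 0.70) and Itgb5 (0.22, -0.85 to 1.42) held 0, and that of Itgb5, from 10 sham UMIs, reached past 2-fold. Cd44 had a negative log2 ratio, and Itgb1 a positive one, under each of the 15 other settings tried. The 2 pools differed in median quiescence score (0.952 in sham, 0.859 in MOV) and matrix score (0.183 and 0.863). At quiescence scores of 0.6 to 0.8, Cd44 was 278 CPM (208 to 365) in sham and 293 CPM in MOV non-cycling MuSCs. From 0.8 to 1 it was 624 and 333 CPM, and at 1 or above 602 and 345 CPM. Itgb1 was 433 and 480, 293 and 499, and 317 and 484 CPM in these bins. The part of the scores in these ratios was not tested.

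Over all MuSCs, which differ in the mix of states, 0 of 5 receptors with at least 20 UMIs were past 2-fold, where 12% of all genes were at least 2-fold higher and 13.7% lower. Cd44 was at 386 CPM in sham and 199 CPM in MOV (log2 ratio -0.95, -1.07 to -0.83), close to the 2-fold limit, and the other settings gave log2 ratios from -1.17 (without the shared barcodes) to -0.71 (at a mitochondrial limit of 5%), of which 6 were past 2-fold. Itgb5 was past 2-fold at the mitochondrial limit of 5% (1.14, from 0.36). Itgb1 was at 314 CPM and 410.4 CPM (0.39, 0.26 to 0.52).

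In the Pdgfra cells Cd44 went the other way, with 227 CPM (181 to 281; 84 UMIs) in sham and 432 CPM (422 to 441) in MOV, a log2 ratio of 0.93 (0.62 to 1.26) and 1.16 above the median of all genes. It came past 2-fold under 4 settings, up to 1.27 without the shared barcodes. Itgb1 was at 389 and 595 CPM (log2 ratio 0.61, 0.38 to 0.86). Itga9 was the 1 receptor of 6 tested that was past 2-fold, and it was lower in MOV (log2 ratio -1.59, -2.47 to -0.57), where 25.3% of all genes were at least 2-fold lower. The sham value rests on 11 UMIs in 29 cells. The intervals of Itgav, Itgb3 and Itgb5 held 0, and Itgav came past 2-fold with equal weight of cells (1.10).

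**Figure D5:**
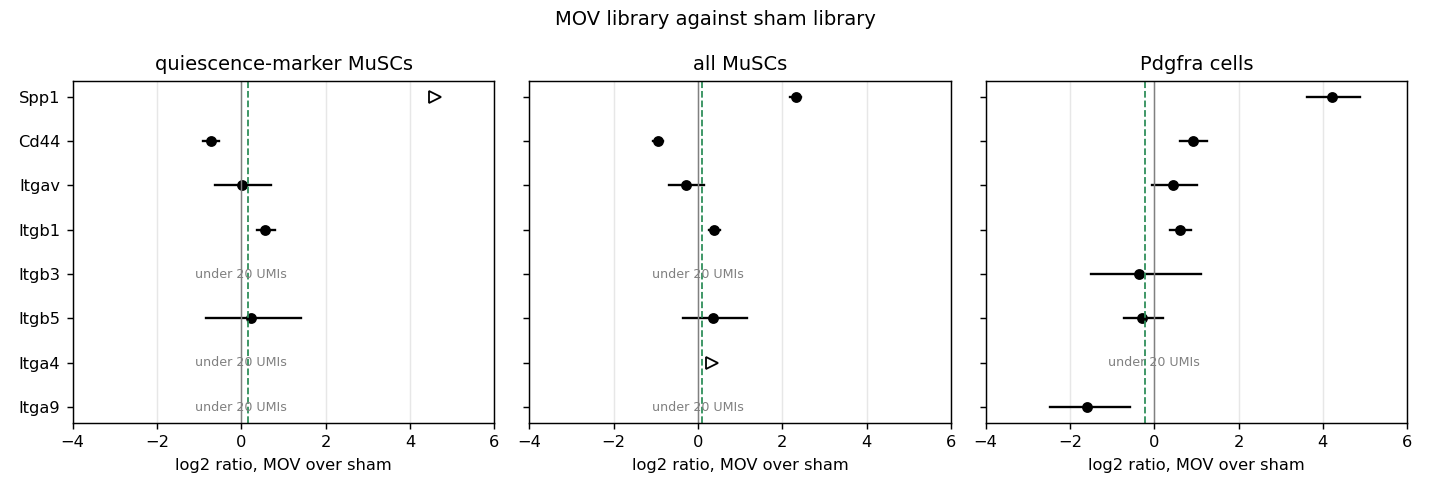
Log2 ratios of MOV over sham for the 8 genes in quiescence-marker MuSCs, all MuSCs and Pdgfra cells. Points with 95% conditional intervals come from summed UMIs, open triangles are ratios against 3 counts where sham had 0 UMIs, and dashed lines are the medians of all tested genes (0.15, 0.09 and -0.23). Cd44 lies at -0.72 and -0.95 in the MuSC groups and at 0.93 in the Pdgfra cells.

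Within the MOV library no tested receptor was past 2-fold in the 3 comparisons of MuSC states, and 6 of 7 were in both Pdgfra and myeloid cells against the MuSCs. Larger shares of all genes were past 2-fold in the comparisons with Pdgfra and myeloid cells as well, and the difference between the kinds of comparison was not tested. Against the quiescence-marker MuSCs, 0 of the 4 tested receptors were past 2-fold in the matrix MuSCs (16.6% of all genes) and 0 of 4 in the quiescence-and-matrix MuSCs (9.54%, with 6.98% higher and 2.56% lower), with Itgb5 nearest at log2 ratios of 0.83 (0.24 to 1.46) and 1.00 (0.38 to 1.65). The second was 0.32 with thresholds 0.2 higher and came past 2-fold, at 1.01, 1.10 and 1.11, with a MuSC gate of 5, with cells given to the highest list and with thresholds 0.2 lower. In the G2/M MuSCs 0 of 5 were past 2-fold (30.6%), with Itgb5 at -0.90 (-1.45 to -0.30), Cd44 at -0.87 (-0.99 to -0.74) and Itgav at -0.84 (-1.19 to -0.47). This count did not hold under every setting, since Itgb5 was at -1.04 and Cd44 at -1.01 with DESeq2 size factors, Itgb5 at -1.28 with higher thresholds and at -1.56 without the matrix list, and Itga4 at 1.67 without that list, against 3 counts in place of 0. In the Myog-high myocytes, against all MOV MuSCs, 1 of 6 tested receptors was at least 2-fold higher (6.76% of all genes) and 1 lower (14.2%). Itga4 was 4.66-fold higher (log2 ratio 2.22, 1.72 to 2.70) and Itgb5 lower by little more than 2-fold (-1.04, -1.62 to -0.51), while Cd44 was at -0.79 and Itgav at -0.88. Itga4 was at 1.35 with a mitochondrial limit of 5%, and Itgb5 within 2-fold at -0.93 with TMM factors and -0.86 with cells given to the highest list. With equal weight of cells Itgav (-1.27) and Itga9 (-1.85, from -0.91) were past 2-fold too, and Itga9 was at -1.08 with a MuSC gate of 5. The Itga9 ratio rests on 1 UMI in the Myog-high myocytes against 19 in the MuSCs (main interval -6.29 to 1.74).

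The Pdgfra cells differed from the MOV MuSCs past 2-fold in 6 of the 7 receptors, where 35.6% of all genes were past 2-fold (54.5% of these calls for higher, and 66.4% with DESeq2 size factors). Cd44 (log2 ratio 1.11, and 0.98 with equal weight of cells), Itgav (2.10), Itgb5 (2.86), Itga9 (4.66) and Itgb3 (5.26, 4.53 to 6.09) were higher and Itga4 lower (-5.43, -10.75 to -2.93). Spp1 itself did not separate these cells, at 0.793 times the level of the MuSCs. In the myeloid cells 6 of the 7 receptors were at least 2-fold higher than in the MuSCs, where 26.6% of all genes were and 48.4% were past 2-fold in either direction (55.0% of these for higher, and 67.5% with DESeq2 size factors). The largest were Itga4 (log2 ratio 4.48) and Itga9 (5.83, from 19 UMIs in each group), and Itgb1 was the exception (-0.60, -0.80 to -0.42, and -1.01 with equal weight of cells). The Itgb3 ratio (4.15) rests on 5 UMIs in 2 of 79 myeloid cells.

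Transcripts of both subunits of a receptor were seen together in few MuSCs, where the rarer subunit was itself seen in few. In a separate thinning to 5000 UMIs, Itgav was seen in 12.9%, Itgb5 in 7.02% and Itgb1 in 86.2% of the MOV MuSCs. In the MOV Pdgfra cells these shares were 40.8%, 38.3% and 91.7%. The shares with both subunits are therefore not read as subunits kept apart in MuSCs. With every cell thinned to 5000 UMIs, Itgav and Itgb1 were seen together in 11.8% (10.2 to 13.5) of 1552 MOV MuSCs and 41.2% (36.8 to 45.7) of 493 MOV Pdgfra cells. Itgav and Itgb5 were seen together in 0.902% (0.494 to 1.51) of the MuSCs and 17.6% (14.4 to 21.3) of the Pdgfra cells. No MOV MuSC of 1552 held UMIs of both Itgav and Itgb3, and 0.838% held both Itga4 and Itgb1, against 4.08% (1.12 to 10.1) of 98 Myog-high myocytes and 18% (8.58 to 31.4) of 50 myeloid cells. Such shares count cells with a UMI and not cells that make the protein.

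The ligand and its receptor Cd44 were seen in the same cell in 27.1% (24.9 to 29.4) of the MOV MuSCs at that depth. Singly, Spp1 was seen in 49.1% and Cd44 in 59.7% of them. The share with both was 41.9% (34.3 to 49.8) of the matrix MuSCs, 15.1% (9.60 to 22.2) of the quiescence-marker MuSCs and 70.0% (55.4 to 82.1) of the myeloid cells. It was 1.96% of 51 vascular cells, where Spp1 was seen in 23.5% and Cd44 in 37.3% of the cells, against 20.9% and 74.1% of the quiescence-marker MuSCs. Spp1 and Itgb1 were seen together in 62.3% (54.5 to 69.6) of the matrix MuSCs, 19.4% (13.2 to 27.0) of the quiescence-marker MuSCs and 17.6% (8.40 to 30.9) of the vascular cells. For both pairs the share of quiescence-marker MuSCs is therefore not read as cells that make osteopontin.

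Other genes of the pathway were read from 7 lists in the quiescence-marker MuSCs, as the number past 2-fold among genes with at least 20 UMIs, beside 13.1% of all genes higher and 5.55% lower in MOV. Of 9 tested ligands of the same integrins 4 were higher and 2 lower in MOV (list median 0.54, all genes 0.15). Postn, a matrix protein of fibroblasts, had 0 sham UMIs and 64.1 CPM in MOV, and Fn1 (fibronectin) 0 UMIs and 47.1 CPM. In the same library both reached similar or higher levels in vascular cells (661 and 170 CPM) and fibre droplets (59.8 and 37.4 CPM), and 6640 and 3355 CPM in Pdgfra cells. Of 4 tested other integrin subunits 2 were higher, among them Itga7, the laminin receptor subunit of muscle cells (39.4 CPM in sham, 81.1 CPM in MOV, log2 ratio 1.04, 0.44 to 1.69). Of 12 tested genes of integrin adhesion 11 were not past 2-fold and 1 was lower, the leukocyte kindlin Fermt3 (17.5 CPM in sham, 5.10 CPM in MOV), and the adhesion adaptors Tln1 (log2 ratio 0.92, 0.48 to 1.39) and Tln2 (0.80, 0.53 to 1.07) had the interval bounds farthest from 0. Also past 2-fold, and named after their values were seen, were the ligands Tnc and Emilin1 (higher) and Thbs1 and Svep1 (lower), the subunit Itga8 (higher), and the regulators Tgfb1 (higher) and Runx2 (lower).

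Among partners of Cd44 and hyaluronan enzymes 1 of 6 was higher, the actin linker Ezr (7.30 CPM in sham, 25.5 CPM in MOV), and its relative Msn had a log2 ratio of 0.60 (0.39 to 0.81). None of 3 tested genes in the list for cleavage and modification of osteopontin was past 2-fold, and 5 of its 10 genes had 0 UMIs. The list also held the thrombin receptor F2r, which does not itself cleave osteopontin. F2r was at 254 CPM in sham and 153 CPM in MOV (log2 ratio -0.73, -1.02 to -0.45). The regulators known to act on Spp1 did not move as 1 group, with 2 of 7 higher and 2 lower. Fos was higher (log2 ratio 1.21, 0.79 to 1.65) and Cebpb lower (-1.24, -1.35 to -1.14) in MOV. MuSCs of the immediate-early group are outside these pools, which bears on Fos. The median immediate-early score of the quiescence-marker MuSCs was 0.953 in sham and lower, 0.786, in MOV. None of the 4 bone matrix glycoproteins related to osteopontin had 20 UMIs in the quiescence-marker MuSCs, and 3 of them had 0 there. Among them Dmp1 was at 16.6 CPM (451 UMIs) in the MOV G2/M MuSCs.

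The genes whose levels over 19 pools (groups by library with at least 20 cells) were most like Spp1 were Pgls (Pearson r = 0.89), an enzyme of the pentose phosphate pathway, Lgals3 (0.86), encoding galectin-3, Gm9844 (0.85), Asxl2 (0.85), Edem2 (0.84), Zfp292 (0.84), Ap1s1 (0.84), Supt4a (0.83), Abracl (0.83) and Igbp1 (0.82), of 11016 genes ranked. Lgals3 was at 16.1 CPM in sham and 113 CPM in MOV quiescence-marker MuSCs, 459.5 CPM in matrix MuSCs and 2517 CPM in myeloid cells. The pools share 2 libraries and are not independent, and only 3 of the 10 genes were also among the first 10 by Spearman's correlation. The receptors ranked far lower, with Cd44 at 0.44, Itgb1 at 0.41, Itga4 at 0.30, Itgav at 0.25, Itgb3 at 0.07, Itga9 at 0.05 and Itgb5 at -0.02.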

How the data were processed

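MuSC preparations from 1 sham and 1 MOV library of plantaris cells were profiled with 10x Genomics 3′ chemistry. The authors aligned reads to mm10 (build 2020-A) with Cell Ranger 6.0.0 and deposited filtered matrices of raw UMI counts for 32285 genes, without normalization. R 4.0.2 and Seurat 4.0.2 are named in the submitters' processing notes. The sources differ on how many mice were pooled, so each library was treated as 1 sample, and no test was made between conditions.

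Cells at or above 10% mitochondrial UMIs (362 sham, 794 MOV) and the shallower copies of shared barcodes were removed, and cells with the markers of 2 lineages (30 sham, 99 MOV) were taken as likely doublets and left out of the groups. Cells were gated on UMIs of a marker list per 10000 UMIs (MuSCs 2, myocytes 20, fibre droplets 500, Pdgfra cells 20, myeloid cells 10, tenocyte-marker cells 20, Schwann-marker and vascular cells 10) with at least 2 to 5 markers seen, and MuSC states on list scores (quiescence 0.6, matrix 1.2, immediate-early 1.8, interferon 0.6, S phase 0.4, G2/M 0.5). These gates were set after the data had been viewed. Of the MOV MuSCs 29.2% lay within 20% of the matrix threshold and 21.9% of the quiescence threshold. Counts were summed over cells as CPM of the group, so that deep cells weigh more, with exact Poisson intervals at 95%. Ratios have exact conditional intervals, shares have exact binomial (Clopper-Pearson) intervals, and all cover counting error only. A gene was past 2-fold with at least 20 UMIs in the pair, and 0 UMIs were set to 3 counts for each pool. Likeness to Spp1 was Pearson's r of log2(CPM + 1) among genes with at least 200 UMIs.

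Named genes were all members, the 10 genes most like Spp1, and from each of 7 pathway lists the 2 with at least 20 UMIs whose interval bound lay farthest from 0. The members, lists and gates were chosen with earlier results of these data known. Alternatives were mitochondrial limits of 5% and 20%, removal of cells like simulated doublets (scanpy 1.11.5), cells given to the highest list, edgeR 4.0.16 TMM and DESeq2 1.42.0 size factors on the counts (R 4.3.3), at least 2000 UMIs per cell, MuSCs without myeloid UMIs, thinning to 5000 UMIs, a pseudocount of 10 CPM, 20 UMIs and Spearman's correlation for likeness, and no filter for the lists. The settings on shared barcodes, a MuSC gate of 5, thresholds 0.2 higher or lower, no matrix list and equal weight of cells were added after seeing the data. Ratios and likeness were tested on simulated data. Python 3.11.15 with numpy 2.4.6, scipy 1.17.1, pandas 2.3.3 and matplotlib 3.10.9 was used. Gene positions and the Spp1 coding sequence came from GENCODE M21, whose identifiers matched for 8 of 8 genes.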

Additional observations from a re-analysis of the deposited data

Results flagged for a closer look

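Cd44 differed between cell types in its direction. Its log2 ratio of MOV over sham was -0.72 in quiescence-marker MuSCs and 0.93 in Pdgfra cells, with intervals on opposite sides of 0, and with 1 library of each condition the difference between these ratios was not tested.

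Spp1 was also present in MOV cells outside the comparisons. In the 792 MOV cells removed by the mitochondrial limit alone it stood at 2288 CPM (2237 to 2340.3), against 4.71 CPM in the 357 such sham cells. In the 289 MOV cells of no group it stood at 662 CPM (636 to 688), against 167 CPM (24 UMIs) in the 22 such sham cells.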

How the results depend on the processing

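No paired analysis was possible because each condition has 1 library. Main values are 1451 CPM for Spp1 in all MOV MuSCs and 105 CPM in MOV quiescence-marker MuSCs. The first was 1274 with DESeq2 size factors, 1383 with TMM factors, 1403 and 1512 at mitochondrial limits of 5% and 20%, 1376 without MuSCs that held a myeloid UMI, 1295 with cells given to the highest list, 1467 without likely doublets and 1256 as a mean over cells. The second was 59.95 and 528 with thresholds 0.2 higher and lower, 84.2 as a mean over cells and 1498 without the matrix list, where Spp1 in G2/M against quiescence-marker MuSCs also turned from a log2 ratio of 3.64 to -0.19, because the cells with matrix transcripts then belong to the reference group. Thinned to 5000 UMIs, 49.1% of MOV MuSCs and 20.9% of quiescence-marker MuSCs held a Spp1 UMI, and 23.5% of vascular cells. Cd44 in quiescence-marker MuSCs had a log2 ratio of -0.94 with DESeq2 size factors, -0.50 at 5% and -0.99 with lower thresholds, and Itgb1 had 0.35 with DESeq2 size factors. Scaling moved the median log2 ratio of all genes from 0.15 to -0.07 in quiescence-marker MuSCs (DESeq2), from -0.23 to 0.09 in Pdgfra cells (TMM) and from -0.02 to 0.30 in myeloid cells against MuSCs (DESeq2). Spearman's correlation kept 3 of the top 10 genes. Genes past 2-fold numbered 5308 in place of 3389 for all MuSCs without shared barcodes, 2373 in place of 1335 for quiescence-marker MuSCs without the matrix list, and 978 in place of 1587 for matrix MuSCs with lower thresholds. Spp1 in all sham MuSCs (291 CPM) was 45.7 with cells given to the highest list, 109 at a MuSC gate of 5 and 48.7 as a mean over cells. Of 805 further ratios of single genes 713 moved by less than their interval, 91 by more and 1 reversed, and of 2458 levels 2244 and 214. In the sham library the small number of MuSCs and their depth limit what can be seen, with up to 4.38 CPM of any gene possible in the quiescence-marker MuSCs at 0 UMIs.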
